A study of Mus musculus with 15 samples.

Results

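The hearts of mice given isoproterenol for 11 days were compared with the hearts of mice given it for 4 days, to see which transcripts had returned by 11 days and which had appeared late. Members were chosen by the treatment label, which gave 8 of the 15 libraries, 4 labelled 11 DAY ISOPROTERNOL (11-day A to D) and 4 labelled 4 DAY ISOPROTERNOL (4-day A to D). All animals were male C57BL6 mice of 12 weeks, and each treated animal received 50 mg/kg/day of isoproterenol, a synthetic agonist of β-adrenergic receptors, as a daily subcutaneous dose. Per the methods of the study, hearts were perfused with potassium chloride after death, and each library held total RNA of ventricular tissue. A saline group of 4 hearts and an 8-day isoproterenol group of 3 hearts serve as a reference for the levels. The saline doses ran for a similar period, so 1 saline group stood for every time. The labels name no transgene and no deleted gene in any group.

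Catecholamines make the heart beat faster and harder through the β-adrenergic receptors of cardiomyocytes, and a sustained excess makes the ventricle hypertrophy. Loss of single cardiomyocytes is followed by an influx of macrophages, by division and activation of fibroblasts and by deposition of collagen, and these reactions ebb once the scar is laid down. The stressed muscle cell also returns to a fetal pattern of transcripts and burns less fatty acid.

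Total expected counts ranged from 27867193 to 99301092 in the 4-day libraries and from 36612052 to 95450437 in the 11-day libraries. Transcripts of the mitochondrial genome, most of them ribosomal, took 47.5 to 52.1% of the counts at 4 days and 49.1 to 52.8% at 11 days. Levels are CPM, counts brought to a common library total, after TMM scaling, which sets the bulk of genes to a common level. The tissue label held, since the ventricular light chain Myl2 stood at 1440 to 2610 CPM and the atrial light chain Myl7 at 0.0087 to 0.139 CPM in the 8 libraries. The heart 4-day B stood apart from its group. On the first principal component of all 15 libraries (33.9% of the variance) it lay at 2.46, the other 4-day hearts at 17.93 to 28.56 and the 11-day hearts at -10.54 to -4.43. For some lists counts are also given without it, and counts not given may have moved as well. The heart 11-day C had the highest level of matrix transcripts of its group.

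In total, 1760 of 26862 genes were lower at 11 days than at 4 days (6.55% of the genes tested) and 1006 were higher (3.75%), by edgeR's quasi-likelihood test at an adjusted p under 0.05. Decreases were the larger changes. Genes lower by at least 2-fold numbered 654, against 71 that were higher by as much, and the median log2 fold change was -0.81 among the lower and 0.39 among the higher genes. Above a floor of 5 CPM in the group where a gene was higher, 789 genes were lower and 810 higher. Their median log2 fold changes lay closer together, at -0.48 and 0.35. Another 7226 genes above the floor had no call, so both shares were larger there than over all genes tested. The shares of all genes set beside the lists below include genes under the floor. Genes for long non-coding RNAs made up 56 of the lower and 84 of the higher genes, of 6794 tested. Both were smaller shares than over all genes tested. The higher genes of at least 5 CPM had a median effective transcript length of 1990 bases, against 2647 bases for the lower genes and 2485 bases for genes without a call. The split between directions depended on the scaling. With library size alone in place of TMM, 2400 genes were lower and 317 higher, so that the share of higher genes among those called went from 36.4 to 11.7%, and the median over all genes moved on the log2 scale from -0.009 to -0.146. Besides the hearts left out, the comparison was fitted in 12 other ways (scaling, filter, length offsets, dispersions, samples, tool, replicate block), named as the other fits. In the lists described here with 0 genes called in a direction, DESeq2 also called 0, and at most 1 gene had an unadjusted p under 0.05 in that direction. Exceptions were 3 lower lymphocyte markers, 4 lower interferon-stimulated genes, 3 higher smooth muscle markers, 2 lower epicardial markers and 2 higher long non-coding RNAs at that unadjusted p. Without 4-day B, 2252 genes were lower and 1661 higher, while without 4-day A the counts were 993 and 444, without 11-day B 1127 and 557, and without 11-day D 1169 and 697. Without 4-day C, 624 genes were higher.

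**Figure D1:**
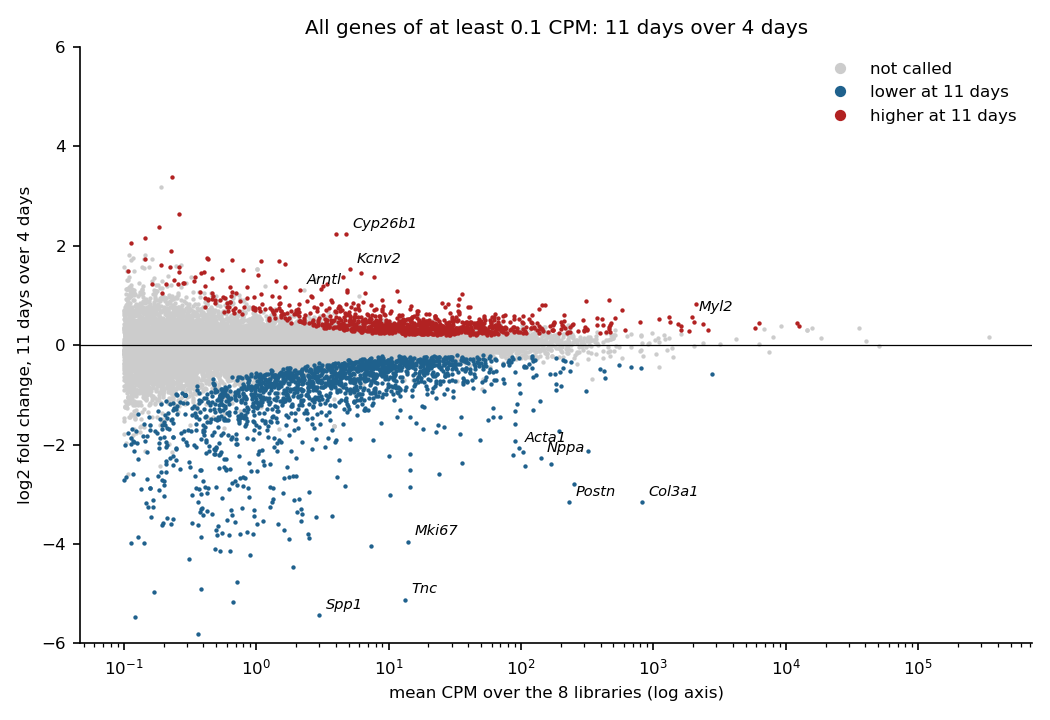
Log2 fold change of 11 days over 4 days (y axis) against the mean level over the 8 libraries in CPM (x axis, log scale) for 19952 genes of at least 0.1 CPM (12 genes beyond 6 log2 units in either direction are left out). Blue points are genes lower at 11 days, red points genes higher, and grey points genes without a call. The decreases of Spp1, Tnc, Mki67, Col3a1 and Postn reach beyond 3 log2 units, while most increases stay under 1.

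Spp1 and Tnc, both genes of matricellular proteins, had the lowest log2 fold changes of the named genes. The lowest was Spp1, the gene of the matricellular protein osteopontin (ENSMUSG00000029304.14, chr5:104435118-104441050, plus strand, GRCm38). It stood at 9.64, 1.26, 7.89 and 4.71 CPM in 4-day A to D and at 0.0562, 0.0826, 0.305 and 0.11 CPM in 11-day A to D. Every 11-day heart lay below every 4-day heart, and the fall was 43.3-fold (log2 fold change -5.44, SE 0.60, adjusted p = 0.000285). The saline hearts held 0.018 to 0.101 CPM of it. In bulk tissue, fewer cells of a type and less RNA per cell cannot be told apart, here and in the results that follow.

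Tenascin C, a glycoprotein of healing wounds encoded by Tnc (chr4:63959785-64047015, minus strand), stood at 46.2, 7.81, 16.7 and 32.4 CPM in the 4-day hearts. In the 11-day hearts it stood at 0.131, 0.413, 1.85 and 0.568 CPM (log2 fold change -5.12, SE 0.59, adjusted p = 0.000337). The groups did not overlap, and 3 of the 11-day hearts were within or below the saline range of 0.448 to 0.824 CPM. Of the list of fibrillar and network collagens, which also held Col15a1, 18 of 20 genes fell and 0 rose. The median log2 fold change was -1.45, against -0.01 for all genes. Without 4-day B, 19 fell. Col3a1, of collagen III, stood at 2350, 510, 1700 and 1390 CPM at 4 days and at 120, 100, 306 and 143 CPM at 11 days (log2 fold change -3.16, SE 0.42, adjusted p = 0.000631). The lowest 4-day value was that of 4-day B and the highest 11-day value that of 11-day C, with a gap between them. Col1a1, of collagen I, had a log2 fold change of -2.79 (SE 0.38, adjusted p = 0.000793). Values given as a rise, a fall or a difference are log2 fold changes from here on. Against saline, Col1a1 was higher by 3.43 at 4 days (SE 0.37) and by 0.64 at 11 days (SE 0.23, adjusted p = 0.155), so the second difference did not pass the test. These comparisons share the treated libraries with the main comparison and are set beside it for scale.

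Of 26 genes of matricellular proteins and glycoproteins, 19 fell and 0 rose (median log2 fold change -1.32). Fn1, the gene of fibronectin, fell by 2.42 (SE 0.33, adjusted p = 0.000793), and Fbn1, of the microfibril protein fibrillin 1, by 2.40 (SE 0.25, adjusted p = 0.000235). Postn, the gene of periostin, a product of activated fibroblasts, stood at 634, 130, 420 and 476 CPM at 4 days and at 21.7, 16.7, 123 and 26.4 CPM at 11 days. The groups came close only between 4-day B and 11-day C. Its log2 fold change was -3.15 (SE 0.60, adjusted p = 0.00473), and with robust dispersions its adjusted p was 0.0828, the highest of a range from 2.55e-05 over the alternatives. Among proteoglycans and hyaluronan synthases, 6 of 13 fell, and 10 fell without 4-day B. Bgn, of biglycan, fell by 1.3 (SE 0.16, adjusted p = 0.000365) and remained above saline by 0.56 (SE 0.13, adjusted p = 0.0302).

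Enzymes that fold, trim and crosslink collagen fell as well. Of 23 such genes, 14 fell and 0 rose (median log2 fold change -0.51), with 8 without 4-day A, 8 without 11-day B and 17 without 4-day B. Loxl2, which oxidises lysines for crosslinks, stood at 61.7, 22.1, 42.1 and 40.2 CPM at 4 days and at 5.81, 5.97, 8.95 and 6.84 CPM at 11 days (log2 fold change -2.60, SE 0.24, adjusted p = 0.000177). The groups did not overlap, and of the 11-day hearts only 11-day C lay within the saline range of 7.13 to 11.2 CPM, the others below it. Lox fell by 3.02 (SE 0.50, adjusted p = 0.00205), with 3.93 CPM in 4-day B against 4.20 CPM in 11-day C, so the groups overlapped. Its adjusted p ranged from 1.28e-05 to 0.0535 over the alternatives, the highest with robust dispersions.

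Of 23 metalloproteinases and inhibitors of the matrix, 13 fell and 2 rose. The rising count was 1 without 4-day A, 4-day C, 4-day D, 11-day A or 11-day C, and 1 or 2 in the other fits. The falling count was 8 with robust dispersions, 7 without 4-day A or 11-day A, and 8 without 4-day C, 11-day B or 11-day D. Timp1, an inhibitor induced in injured tissue, fell from 12.1, 2.9, 5.25 and 6.97 CPM to 0.525, 0.33, 1.17 and 0.508 CPM (log2 fold change -3.44, SE 0.41, adjusted p = 0.000365). Timp4, an inhibitor of the same family, went the other way. It stood at 3.94, 4.88, 4.77 and 4.48 CPM at 4 days and at 10.7, 5.7, 8.39 and 5.04 CPM at 11 days. The groups did not overlap (log2 fold change 0.72, SE 0.19, adjusted p = 0.03), yet the call was lost in 10 of 20 alternatives, with adjusted p from 0.00389 to 0.126. Timp4 was below saline at both times, by 1.82 at 4 days (SE 0.17) and by 1.10 at 11 days (SE 0.23).

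Fibroblast transcripts were mostly lower. Of 15 markers of myofibroblasts and activated fibroblasts, 12 fell and 0 rose (median log2 fold change -1.10), although only 5 fell with robust dispersions. The 12 include Acta1, the skeletal α actin, which is counted again in the fetal and hypertrophic program below. Of 15 general fibroblast markers 9 fell and 1 rose (median -0.48). The general marker that rose was Gsn, the gene of gelsolin, which severs actin filaments and is also made by muscle. It stood at 255, 377, 347 and 294 CPM at 4 days and at 558, 591, 663 and 593 CPM at 11 days (log2 fold change 0.91, SE 0.11, adjusted p = 0.000389). All 11-day hearts exceeded all saline hearts, which held 392 to 500 CPM. Of 21 ligands, receptors and targets of TGF-β, the main profibrotic cytokine, 6 fell and 0 rose, with a median of -0.13. The falling count was 3 without 11-day A or 11-day D, and 8 without 4-day B. Tgfb2, a ligand, fell by 0.81 (SE 0.12, adjusted p = 0.00107) and lay below saline at 11 days by 0.49 (SE 0.11, adjusted p = 0.0226).

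**Figure D2:**
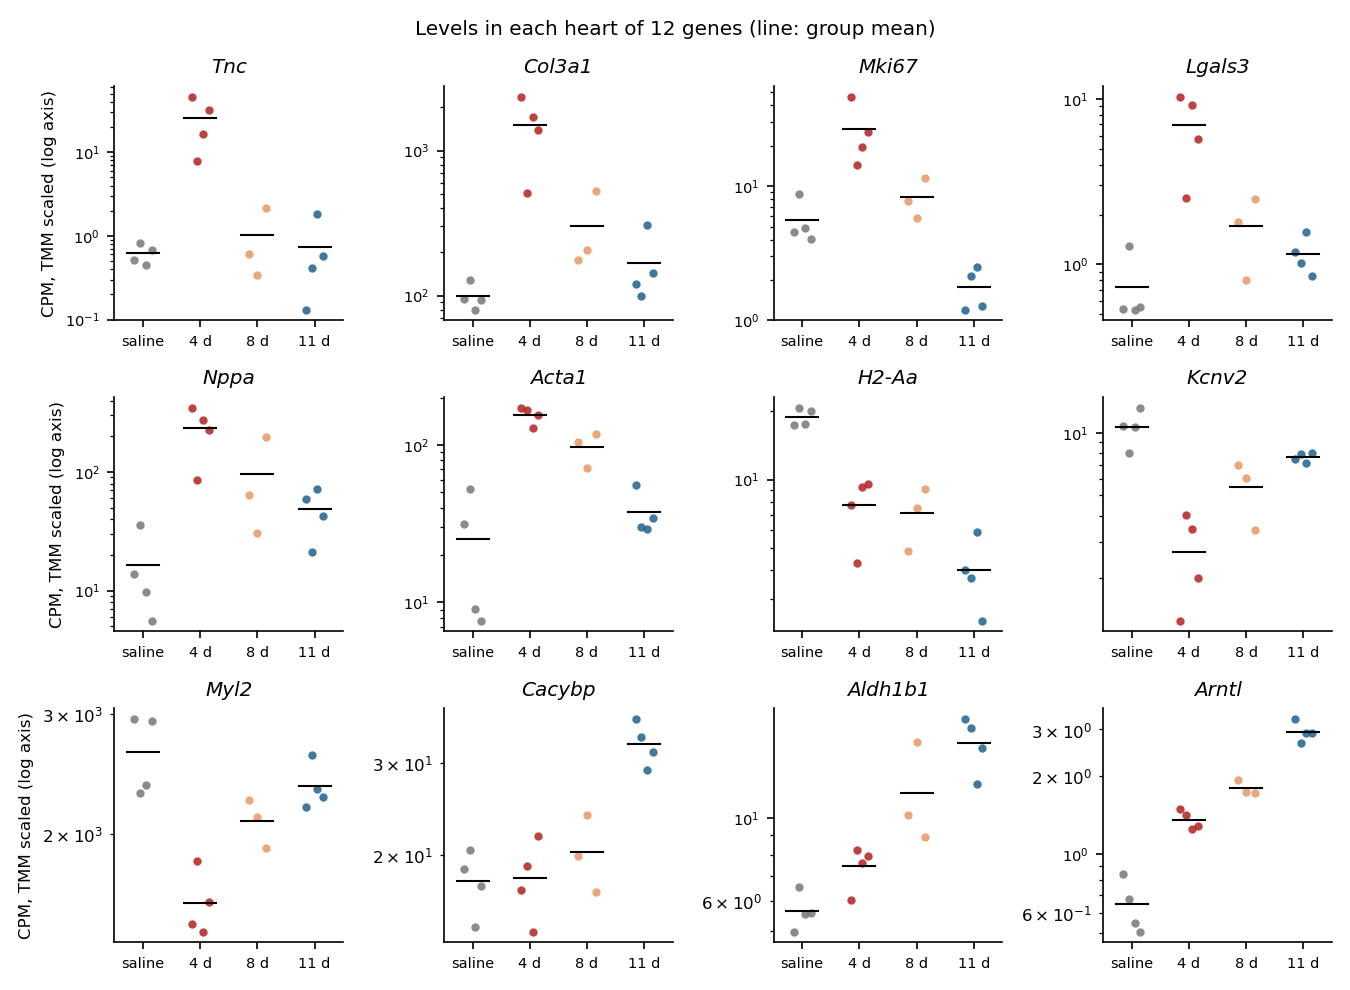
Levels of 12 genes in each heart (points) by group (x axis), in TMM-scaled CPM on a log axis (y axis), with a line at each group mean. Tnc, Col3a1, Mki67, Lgals3, Nppa and Acta1 are lower in all 11-day hearts than in all 4-day hearts, H2-Aa overlaps between the groups and is lowest in 11-day D at 2.4 CPM, and Kcnv2, Myl2, Cacybp, Aldh1b1 and Arntl are higher in all 11-day hearts.

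Genes of cell division fell. Of 51 genes of mitosis, 47 fell and 0 rose, with a median log2 fold change of -3.05. The list medians against saline were 2.15 at 4 days and -0.88 at 11 days. With each heart left out in turn 46 to 49 fell. Mki67, whose protein coats chromosomes of dividing cells, stood at 46.4, 14.4, 19.6 and 25.5 CPM in the 4-day hearts and at 1.2, 2.15, 2.51 and 1.27 CPM in the 11-day hearts (log2 fold change -3.95, SE 0.35, adjusted p = 0.000137). Saline hearts held 4.05 to 8.71 CPM, so every 11-day heart lay below every saline heart (log2 fold change -1.67, SE 0.27, adjusted p = 0.00366). Top2a, the topoisomerase that untangles chromosomes, fell by 4.04 (SE 0.38, adjusted p = 0.000179) and was below saline by 1.40 (SE 0.31, adjusted p = 0.0214). Kif11, the motor that separates spindle poles, fell by 3.40 (SE 0.30, adjusted p = 0.000137) and was below saline by 1.39 (SE 0.25, adjusted p = 0.00722). Ccna2, the cyclin of S phase and G2, fell by 3.89 (SE 0.35, adjusted p = 0.000137). Prc1, which bundles microtubules at the division plane, fell by 3.46 (SE 0.38, adjusted p = 0.000285).

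Of 42 genes of DNA replication, 25 fell and 0 rose (median log2 fold change -0.64). Without 4-day A, 16 fell, and without 4-day B, 31 fell. Uhrf1, which carries DNA methylation through replication, fell by 2.64 (SE 0.29, adjusted p = 0.000285). Mcm6, a subunit of the replicative helicase, fell by 0.90 (SE 0.13, adjusted p = 0.000896), from 10.8, 7.04, 7.9 and 7.33 CPM to 4.05, 4.74, 4.48 and 4.73 CPM. Its 11-day range overlapped that of saline hearts, 3.85 to 4.68 CPM.

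Promoters of genes induced late in the cell cycle are known for CCAAT boxes, read by the factor NF-Y, and for a repressive element read TTTGAA or, in a variant, TTTAAA. Both were searched on both strands in the 250 bases before the start of each gene in the RefSeq promoter table (GRCm38.p6), a description and not a test. CCAAT was found in 33.8% of 32851 promoters, in 32 of 44 promoters (72.7%) of the mitosis list and in 9 of 10 promoters of the named cell cycle genes. The second element, in either form, was found in 25.2% of all promoters and in 22 of 44 (50.0%) of the mitosis list. Among the named cell cycle genes it was found in 4 of 10 promoters. A gene with several listed starts counted with each of them. The table matched 42 of the 51 mitosis genes and 8 of the 9 named cell cycle genes, the gene without an entry being Ccna2. The 3 promoters below are examples chosen by name among genes that fell by more than 3 log2 units. Prc1, which fell by 3.46, is not shown. Each of its windows held 1 CCAAT match, and 1 of them held no second element. Capitals below mark both elements on either strand. The windows shown are chr11:99024190-99024439 (minus strand), chr7:135716380-135716629 (minus strand) and chr19:37376132-37376381 (plus strand).
Top2a: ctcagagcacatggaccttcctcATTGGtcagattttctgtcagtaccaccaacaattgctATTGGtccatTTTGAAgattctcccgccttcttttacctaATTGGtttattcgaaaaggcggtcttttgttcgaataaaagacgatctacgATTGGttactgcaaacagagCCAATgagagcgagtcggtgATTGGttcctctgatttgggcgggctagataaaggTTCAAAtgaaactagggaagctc
Mki67: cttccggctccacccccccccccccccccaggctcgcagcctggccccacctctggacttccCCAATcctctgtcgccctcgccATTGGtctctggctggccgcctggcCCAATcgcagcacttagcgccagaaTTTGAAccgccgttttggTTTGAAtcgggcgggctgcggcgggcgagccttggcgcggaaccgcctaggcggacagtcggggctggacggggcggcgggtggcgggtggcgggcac
Kif11: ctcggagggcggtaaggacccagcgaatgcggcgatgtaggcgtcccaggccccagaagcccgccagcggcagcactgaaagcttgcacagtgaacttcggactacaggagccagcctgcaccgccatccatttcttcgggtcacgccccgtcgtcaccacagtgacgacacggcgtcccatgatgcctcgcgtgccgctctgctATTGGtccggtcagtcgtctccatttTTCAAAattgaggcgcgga

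Macrophage transcripts fell as well. Of 24 markers of recruited monocytes and scavenger macrophages, 17 fell and 0 rose (median log2 fold change -1.10), and of 18 markers of resident macrophages 10 fell and 1 rose (median -0.45), the latter not without any of 4-day A, C and D and 11-day B and D. Lgals3, of the lectin galectin 3, stood at 10.3, 2.52, 9.21 and 5.73 CPM at 4 days and at 1.18, 1.02, 1.56 and 0.847 CPM at 11 days (log2 fold change -2.66, SE 0.35, adjusted p = 0.000605). Trem2, a lipid receptor of macrophages, fell by 2.09 (SE 0.31, adjusted p = 0.00122). Cd68, a lysosomal protein of macrophages, fell by 1.58 (SE 0.22, adjusted p = 0.000759) to 2.16 to 2.51 CPM, next to a saline range of 1.71 to 2.29 CPM. Adgre1, the gene of the F4/80 antigen, fell by 1.11 (SE 0.15, adjusted p = 0.000811).

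A few myeloid genes dropped below saline. Itgax, the integrin CD11c of dendritic cells and some macrophages, stood at 1.1, 0.693, 0.827 and 0.458 CPM at 4 days and at 0.0937, 0.0551, 0.126 and 0.0498 CPM at 11 days (log2 fold change -3.34, SE 0.35, adjusted p = 0.000257). Saline hearts held 0.295 to 0.647 CPM, and the difference from saline at 11 days was -2.32 (SE 0.41, adjusted p = 0.00699). Cx3cr1, the fractalkine receptor, fell by 1.60 (SE 0.28, adjusted p = 0.00324) although 4-day B, at 0.642 CPM, lay within the 11-day range of 0.309 to 0.646 CPM. It was below saline at 11 days by 1.66 (SE 0.29, adjusted p = 0.00689).

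MHC class II molecules present antigen to T cells. H2-Aa, of an α chain, stood at 17.3 to 20.7 CPM in saline hearts, at 7.73, 4.31, 9.29 and 9.59 CPM at 4 days and at 3.99, 3.69, 5.88 and 2.4 CPM at 11 days. Only 4-day B lay within the 11-day range. H2-Aa was below saline at 4 days by 1.28 (SE 0.18, adjusted p = 0.000914). The difference between times was -0.98 (SE 0.25, adjusted p = 0.0247), and the call was lost in 8 of 20 alternatives (adjusted p from 0.00205 to 0.161), among them leaving out any of 4-day A, C and D and 11-day A, B and D. Of the 11 genes of the list 0 rose and 4 fell, namely H2-Aa, H2-Eb1, H2-Ob and H2-DMb1. Against saline at 4 days H2-Eb1 was lower by 1.32 (SE 0.17, adjusted p = 0.000589), while H2-Ob (log2 fold change -0.42, adjusted p = 0.573) and H2-DMb1 (log2 fold change -0.52, adjusted p = 0.32) did not pass. From 1 (robust dispersions) to 7 genes of the list (library size alone) fell in the other fits. Between 0 (without 11-day A) and 7 (without 4-day B) fell when a heart was left out, with 1 without 4-day C, 4-day D or 11-day B and 2 without 4-day A or 11-day D. Among 20 lymphocyte markers and among 8 neutrophil markers 0 were called in either direction. The lymphocyte list had a median log2 fold change of -0.61, which was -0.09 without 4-day C, and 1 gene was lower without 4-day B.

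Of 20 chemokines 5 fell and 1 rose, the latter count being 0 without 4-day A or 4-day C and 2 without 11-day D. Ccl8, which draws monocytes, fell by 2.29 (SE 0.33, adjusted p = 0.00102), and Cxcl10, an interferon-induced chemokine, by 2.81 (SE 0.54, adjusted p = 0.00494) at levels of 0 to 0.548 CPM. Interferon-stimulated genes as a list stayed near the median of all genes, with 0 of 36 lower and 2 higher (median log2 fold change -0.09). Without 4-day B, 4 were lower. Of 19 genes of the IL-6 family and the acute phase 2 fell and 5 rose (median log2 fold change -0.26). The count that rose was 0 with library size alone and 1 to 3 with a heart left out. Lifr, a receptor for leukemia inhibitory factor, rose by 0.24 (SE 0.07, adjusted p = 0.0362), and Il11ra1, a receptor for IL-11, by 0.33 (SE 0.07, adjusted p = 0.00795). The 2 that fell were Serpina3n and Stat3. Serpina3n, a protease inhibitor of the acute phase, stood at 35.6, 18.7, 17.2 and 29.3 CPM at 4 days, at 11.4, 8.37, 10.5 and 12.6 CPM at 11 days, and at 1.71 to 3.08 CPM in saline hearts. The fall of 1.23 (SE 0.20, adjusted p = 0.00199) left it 2.25 above saline at 11 days (SE 0.16, adjusted p = 2.07e-05). Stat3, which carries IL-6 signals to the nucleus, fell by 0.54 (SE 0.08, adjusted p = 0.00154).

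**Figure D3:**
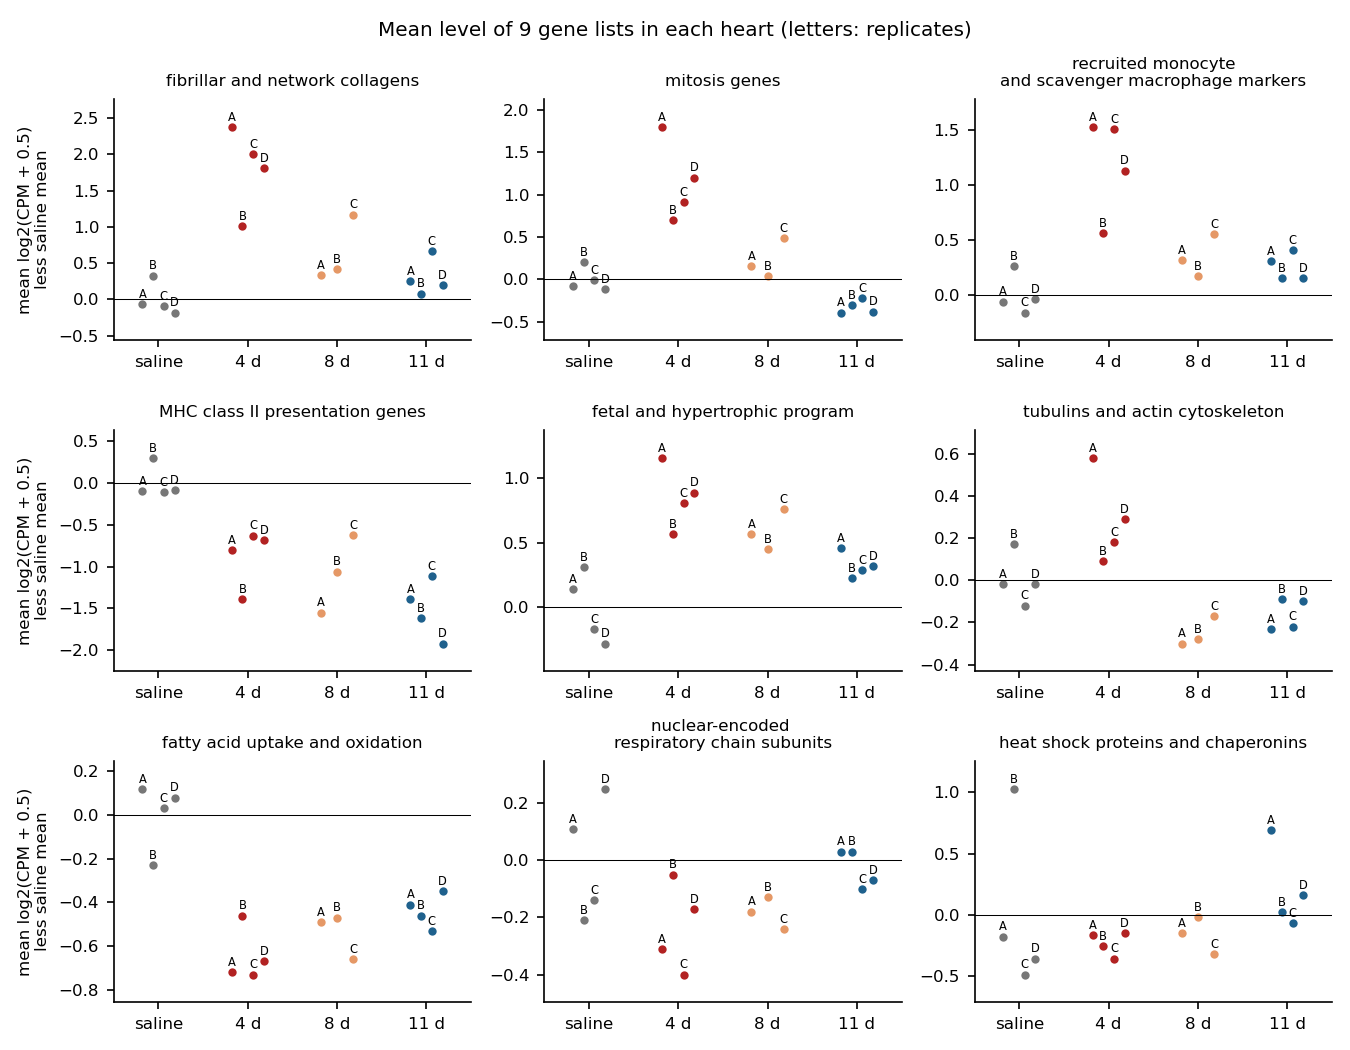
Mean log2(CPM + 0.5) of the genes of 9 lists in each heart, less the mean of the saline hearts (y axis), by group (x axis), with letters for replicates. Collagen, mitosis and macrophage lists are lower in all 11-day hearts than in all 4-day hearts, 4-day B is the lowest 4-day heart in these 3 panels, and the fatty acid and respiratory chain lists overlap between the groups through 4-day B.

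Transcripts of the fetal and hypertrophic program fell in part. Of 25, 11 fell and 0 rose (median log2 fold change -0.29), and 7 fell with robust dispersions. Nppa, of atrial natriuretic peptide, stood at 349, 86, 276 and 224 CPM at 4 days and at 58.9, 21, 71.4 and 42.9 CPM at 11 days. The groups did not overlap (log2 fold change -2.27, SE 0.38, adjusted p = 0.00227), although robust dispersions gave an adjusted p of 0.0562, the highest of a range from 1.63e-08. Acta1, the skeletal α actin of the fetal heart, fell by 2.07 (SE 0.18, adjusted p = 0.000137), from 173, 167, 128 and 156 CPM to 55.7, 30.1, 29.4 and 34.5 CPM. Saline hearts varied widely, from 7.64 to 52.3 CPM, and the 11-day difference from saline did not pass the test (log2 fold change 0.57, SE 0.46, adjusted p = 0.599). Fhl1, a sarcomeric LIM protein, fell by 1.59 (SE 0.26, adjusted p = 0.00189) to 43.6 to 48.4 CPM, above all saline hearts at 28.8 to 32.4 CPM (log2 fold change 0.53, SE 0.07, adjusted p = 0.00118).

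Not every stress gene followed. Ankrd1, a sarcomeric stress sensor, stood at 1700, 954, 1180 and 1250 CPM at 4 days and at 1040, 935, 1050 and 753 CPM at 11 days. The difference of -0.44 (SE 0.15, adjusted p = 0.0877) did not pass, but it passed without 4-day B (adjusted p = 0.014) and in 6 other alternatives, over a range from 0.014 to 0.375. It remained above saline by 1.79 at 11 days (SE 0.28, adjusted p = 0.00332). Myh7, the slow myosin chain, stood at 251, 72, 133 and 61.8 CPM at 4 days and at 178, 160, 169 and 165 CPM at 11 days, so that the spread of the 4-day hearts enclosed every 11-day heart (log2 fold change 0.37, SE 0.32, adjusted p = 0.554). Without 4-day A it was higher at 11 days, with an adjusted p of 0.0135 in a range of 0.0135 to 0.84. Nppb, of brain natriuretic peptide, fell by 0.75 (SE 0.17, adjusted p = 0.0118). Its groups overlapped between 4-day B, at 15.5 CPM, and 11-day A, at 18 CPM. All groups in one fit gave Nppb an adjusted p of 0.326 and robust dispersions 0.0937, in a range of 0.00033 to 0.326.

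The cytoskeleton of microtubules and actin, which thickens in overloaded muscle, was lower. Of 32 genes, 18 fell and 1 rose (median log2 fold change -0.46). The falling count was 21 without 4-day B and 14 without 4-day A, 11-day A or 11-day C. Vim, of the intermediate filament vimentin of mesenchymal cells, fell by 1.11 (SE 0.13, adjusted p = 0.000348). Actg1, of cytoplasmic γ actin, fell by 0.76 (SE 0.12, adjusted p = 0.00135), from 111, 68.8, 105 and 89.3 CPM to 55.1, 54.3, 55.2 and 57.6 CPM. All 4 of these 11-day values lay below the saline range of 67.6 to 90 CPM (log2 fold change -0.54, SE 0.09, adjusted p = 0.00516).

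Adult sarcomere genes moved in both directions, with 4 of 27 lower and 6 higher. The median log2 fold change of this list was 0.06 and turned to -0.08 when libraries were scaled by size alone, so no direction is given for it. Myl2 stood at 1480, 1830, 1440 and 1590 CPM at 4 days and at 2190, 2610, 2330 and 2270 CPM at 11 days, inside the saline range of 2300 to 2950 CPM or just under it. The groups did not overlap (log2 fold change 0.56, SE 0.10, adjusted p = 0.0024). Myom2, of the M-band protein myomesin 2, rose by 0.72 (SE 0.13, adjusted p = 0.00403), and Tnni3, of cardiac troponin I, by 0.46 (SE 0.09, adjusted p = 0.00406). Actc1, the cardiac α actin, went down by 0.57 (SE 0.10, adjusted p = 0.00239), from 3640, 3180, 2790 and 3620 CPM to 2200, 2330, 2090 and 2320 CPM, and Actn2, of the Z-disc crosslinker α actinin 2, by 0.47 (SE 0.09, adjusted p = 0.00592). The 18 cardiomyocyte markers had 3 lower and 5 higher genes (2 higher without 4-day A or 11-day B, and 3 without 4-day C, 4-day D or 11-day A), and their median also changed sign under that scaling, from 0.10 to -0.03.

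**Figure D4:**
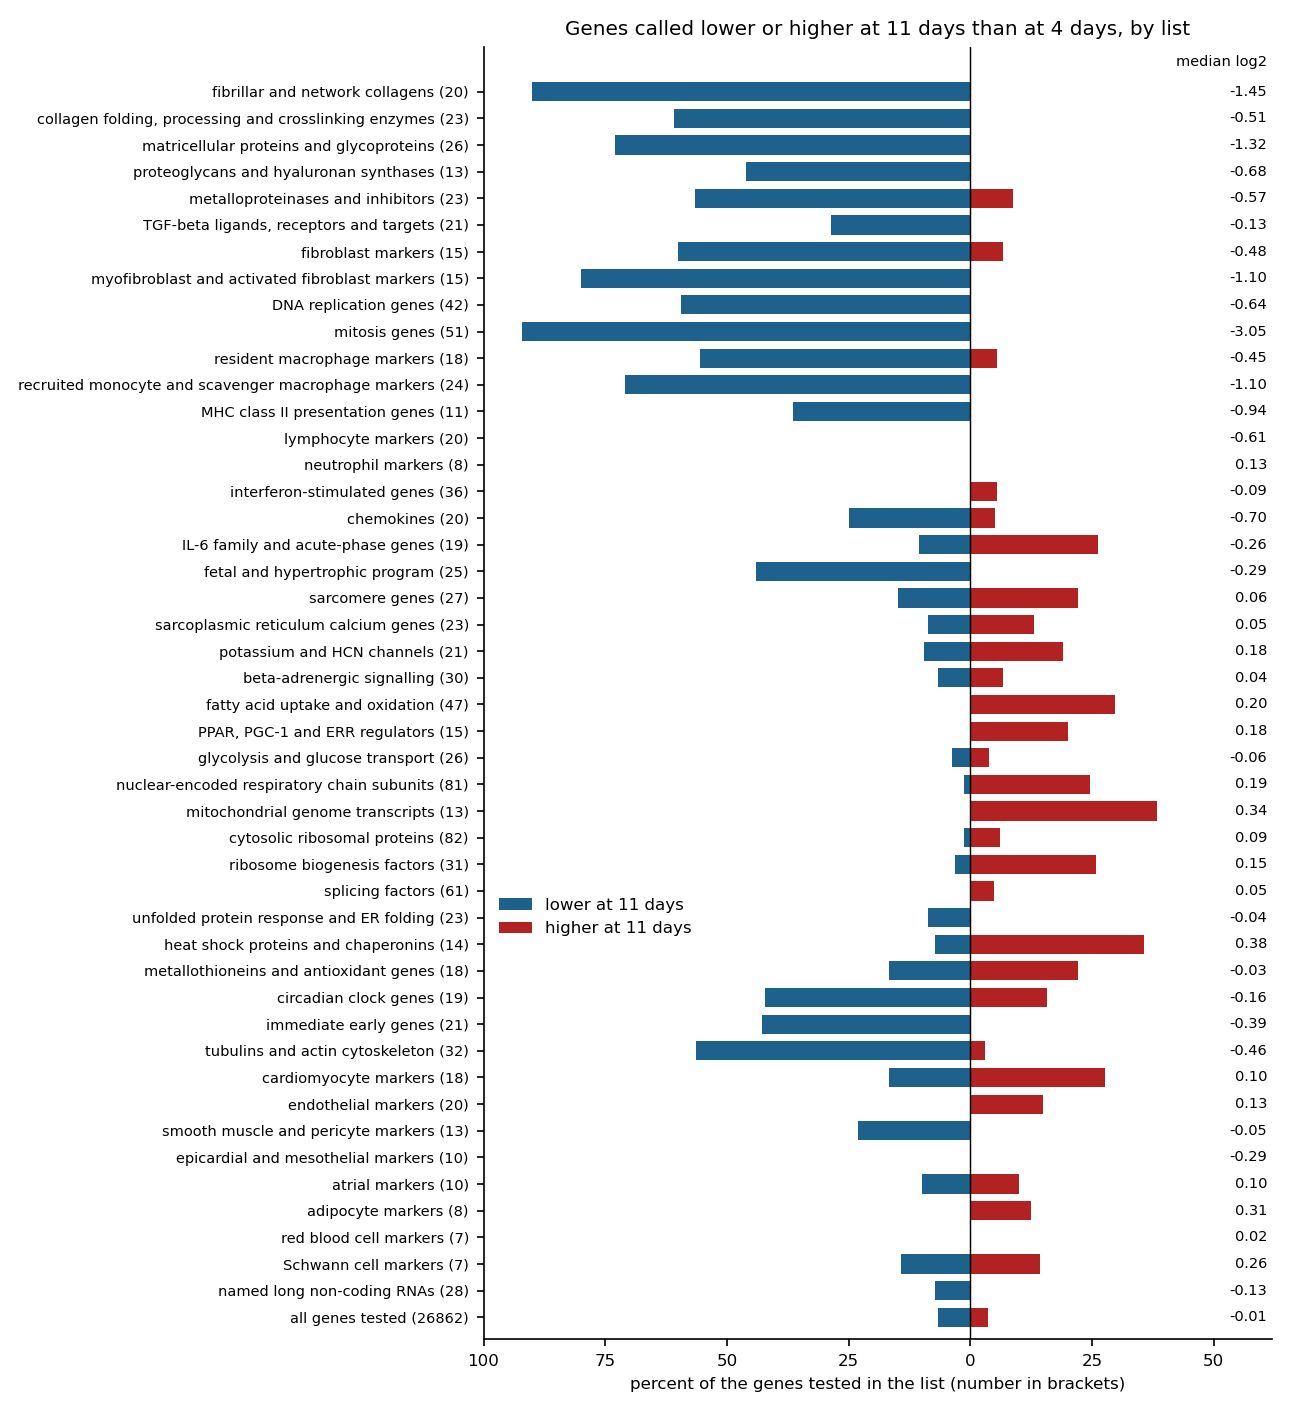
Share of the genes of each list that was lower (blue, to the left) or higher (red, to the right) at 11 days than at 4 days, in percent of the genes tested in the list (x axis), with the median log2 fold change at the right edge. The share reaches 47 of 51 for mitosis genes and 18 of 20 for collagens, while the bottom bar gives all 26862 genes.

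Calcium and potassium handling of the muscle membrane shifted in few genes. Of 23 genes of the sarcoplasmic reticulum 2 fell (4 with library size alone) and 3 rose, the rising count being 1 without 4-day A and 5 without 4-day B. Atp2a2, of the calcium pump SERCA2, was below saline at both times, by 0.63 at 4 days (SE 0.11) and by 0.51 at 11 days (SE 0.09). It stood at 3480, 4840, 4140 and 3750 CPM at 4 days and at 4220, 4430, 4220 and 4940 CPM at 11 days, and the groups overlapped (log2 fold change 0.13, SE 0.11, adjusted p = 0.54). Jph1, of junctophilin 1, which ties the reticulum to the surface membrane, rose by 0.56 (SE 0.09, adjusted p = 0.00231). Casq1, a calcium store protein typical of skeletal muscle, fell by 1.66 (SE 0.30, adjusted p = 0.00338).

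Of 21 potassium and HCN channel genes 4 rose and 2 fell (median log2 fold change 0.18), and 2 to 6 rose in the other fits. With a heart left out 4 or 5 rose, and 0 fell without 4-day C or 11-day D. Kcnv2, a silent subunit that modifies Kv2 channels, stood at 1.25, 4.03, 3.43 and 2 CPM at 4 days and at 7.48, 7.87, 7.12 and 8.03 CPM at 11 days. Every 11-day heart exceeded every 4-day heart (log2 fold change 1.53, SE 0.25, adjusted p = 0.00224), and the saline hearts lay at 8.03 to 13.2 CPM, at or above the highest 11-day heart. Kcnj11, the pore of the ATP-sensitive channel, rose by 0.43 (SE 0.07, adjusted p = 0.00137). Kcnip2, which brings Kv4 channels to the surface, rose by 0.46 (SE 0.11, adjusted p = 0.0178). With library size alone, or without 11-day B, Kcnip2 did not pass (adjusted p = 0.0614 and 0.0571, within a range of 0.00166 to 0.0614). The β-adrenergic list had 2 lower and 2 higher genes of 30 (6.67% each, against 6.55% lower and 3.75% higher of all genes). The higher count was 0 with library size alone, 4 by DESeq2, 5 without 4-day B, 1 without 11-day A or 11-day B and 0 without 4-day A, 4-day C, 4-day D or 11-day D.

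Some genes of fat burning rose. Among 47 genes for taking up and oxidising fatty acids 14 rose and 0 fell (29.8%, against 3.75% of all genes), with a median log2 fold change of 0.20. The list medians against saline were -0.59 at 4 days and -0.39 at 11 days. The count rested on the hearts used, with 25 without 4-day B, 4 without 4-day A or 4-day C, 7 without 4-day D and 5 without 11-day A, B or D, and it was 5 with library size alone and 9 with effective lengths as offsets. Acadm, the medium-chain acyl-CoA dehydrogenase, stood at 262, 372, 268 and 321 CPM at 4 days and at 463, 457, 429 and 442 CPM at 11 days (log2 fold change 0.54, SE 0.10, adjusted p = 0.00486). Ech1, an auxiliary enzyme for unsaturated fatty acids, rose by 0.46 (SE 0.10, adjusted p = 0.0108) but stayed below saline by 0.79 (SE 0.12, adjusted p = 0.0024). Acot1, a cytosolic acyl-CoA thioesterase, stood at 0.696, 0.796, 0.669 and 0.753 CPM at 4 days, at 1.07, 1.21, 1.43 and 2.07 CPM at 11 days and at 2.97 to 5.87 CPM in saline hearts. The 3 groups did not overlap, and the rise between the times was 1.03 (SE 0.21, adjusted p = 0.00701). Fabp3, whose protein carries fatty acids in muscle, was 0.30 higher (SE 0.12, adjusted p = 0.134), which did not pass, though it did without 4-day B (adjusted p = 0.0044, in a range of 0.0044 to 0.307).

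Some genes of the respiratory chain rose as well. Of 81 nuclear-encoded subunits 20 rose and 1 fell (24.7% higher, median log2 fold change 0.19). Leaving out a heart gave 39 (4-day B), 9 (4-day A), 10 (4-day C), 8 (11-day B), 12 (11-day A) and 13 (11-day D), library size alone gave 10, all groups in one fit 11 and limma voom 32. Cox7a1, the muscle form of a cytochrome oxidase subunit, rose by 0.61 (SE 0.10, adjusted p = 0.00257), from 142, 201, 149 and 180 CPM to 266, 273, 259 and 234 CPM. Ndufa1, of complex I, rose by 0.48 (SE 0.07, adjusted p = 0.00125). Of the 13 protein genes of the mitochondrial genome 5 rose and 0 had a log2 fold change below 0 (median 0.34). That count was 2 without 4-day A, 11-day A or 11-day B, 3 without 4-day C or 11-day C, 8 without 4-day B, and 0 with all groups in one fit. Ppargc1a, the coactivator that drives mitochondrial biogenesis, rose by 0.37 (SE 0.08, adjusted p = 0.00967), but its adjusted p was 0.11 with effective lengths as offsets in edgeR and 0.057 with length offsets in DESeq2 (range 0.000365 to 0.11).

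**Figure D5:**
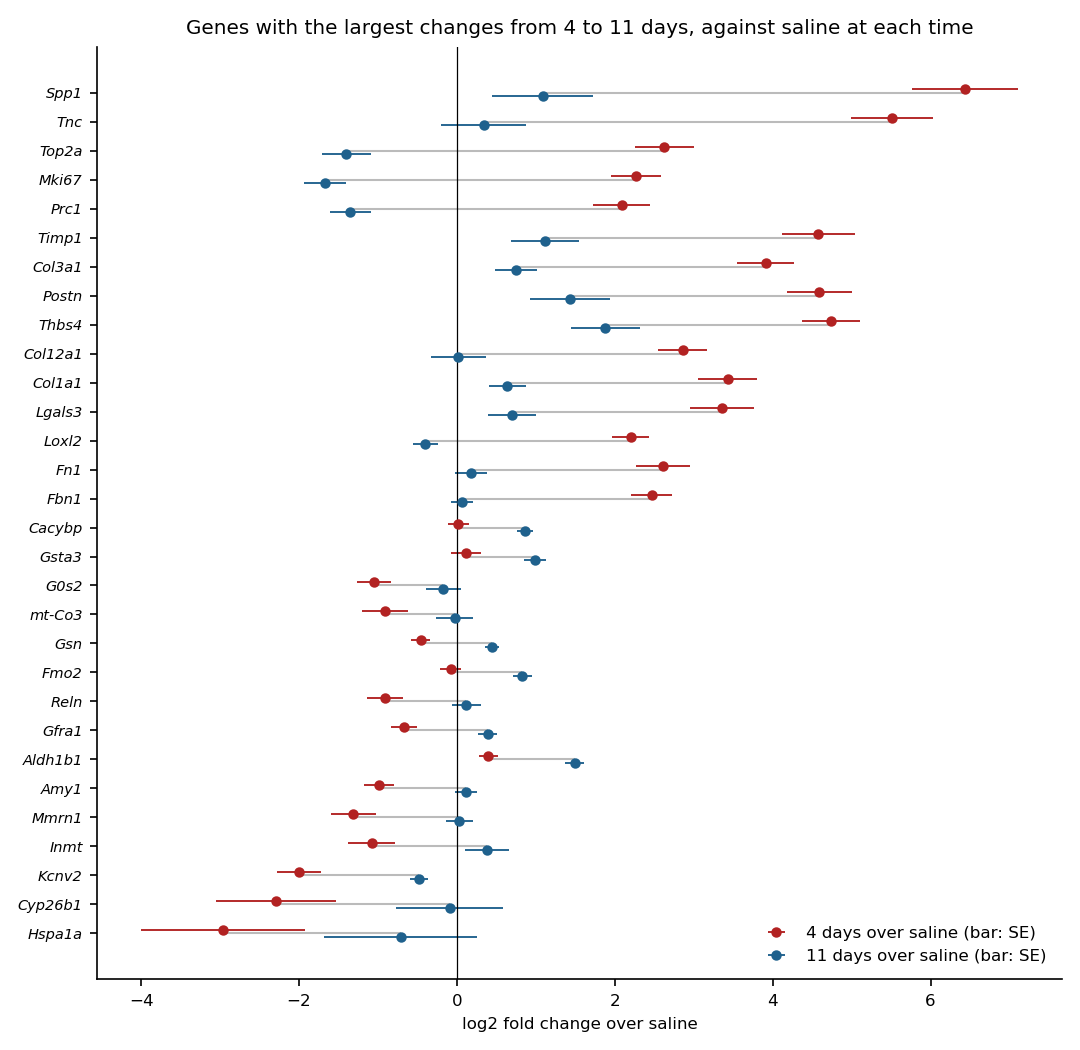
Log2 fold changes over saline (x axis) at 4 days (red) and at 11 days (blue), with bars of 1 SE, for the 15 genes with the lowest and the 15 with the highest log2 fold change between the times (y axis, sorted). Red and blue share the saline libraries. Top2a, Mki67, Prc1 and Loxl2 cross from above to below 0. Cacybp, Gsta3 and Fmo2 lie near 0 at 4 days and above it at 11 days, and Aldh1b1 goes from 0.40 to 1.49.

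Some genes rose late, past the saline level. Aldh1b1, a mitochondrial aldehyde dehydrogenase, stood at 4.97 to 6.53 CPM in saline hearts, at 6.04, 8.24, 7.61 and 7.95 CPM at 4 days and at 18.5, 17.5, 12.4 and 15.4 CPM at 11 days. The 8-day hearts held 8.93 to 16 CPM, above the 4-day hearts and overlapping the 11-day hearts. Its rise was 1.10 (SE 0.12, adjusted p = 0.000311), and its difference from saline 0.40 at 4 days (SE 0.12, adjusted p = 0.0552) and 1.49 at 11 days (SE 0.12, adjusted p = 3.58e-05). Cacybp, whose protein binds calcyclin and chaperones, stood at 17.2, 19.1, 14.3 and 21.8 CPM at 4 days, beside 14.6 to 20.5 CPM in saline hearts, and at 36.4, 33.6, 29 and 31.5 CPM at 11 days (log2 fold change 0.85, SE 0.11, adjusted p = 0.000648). Fmo2, a flavin monooxygenase, rose by 0.92 (SE 0.13, adjusted p = 0.00092) and was above saline by 0.83 (SE 0.12, adjusted p = 0.0022). Its mean was already 45.5 CPM at 8 days, against 44.4 CPM at 11 days. The glutathione transferase gene Gsta3 rose by 0.87 (SE 0.14, adjusted p = 0.00203) and exceeded saline by 0.99 (SE 0.14, adjusted p = 0.00201). Among 18 metallothioneins and antioxidant genes 4 rose and 3 fell. With a heart left out the count that rose was 3 or 4, except 6 without 4-day B, and the count that fell was 6 with library size alone, 1 without 4-day A, 4-day D, 11-day B, 11-day C or 11-day D and 5 without 4-day B.

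Heat shock and chaperonin genes, whose proteins refold damaged proteins, were higher in 5 of 14 cases and lower in 1 (median log2 fold change 0.38). From 2 (robust dispersions, or all groups in one fit) to 8 (replicate block) were higher in the other fits. Without 4-day C, 3 were higher, and 0 were lower without 4-day A, 11-day B or 11-day D. Hspe1, the mitochondrial chaperonin cap, stood at 18, 24.7, 15.2 and 23.2 CPM at 4 days and at 41.8, 39.2, 29.2 and 33.4 CPM at 11 days (log2 fold change 0.82, SE 0.14, adjusted p = 0.00297). All 11-day hearts exceeded the saline range of 19.1 to 26.6 CPM. Hsp90ab1, the constitutive cytosolic HSP90, rose by 0.55 (SE 0.09, adjusted p = 0.00239). Hspa1a, the inducible HSP70, had the largest log2 fold change of the named increases but not of one size in all hearts. It stood at 1.42, 1.23, 1.65 and 1.18 CPM at 4 days and at 14.6, 2.67, 3.95 and 5.41 CPM at 11 days (log2 fold change 2.24, SE 0.41, adjusted p = 0.00397). Saline B held 41.6 CPM and the other saline hearts 0.743 to 1.52 CPM. The adjusted p of Hspa1a was 0.0712 with robust dispersions and 0.171 with all groups in one fit, in a range of 6.19e-05 to 0.171.

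Heat shock factors bind inverted repeats of GAA and TTC. The motifs GAANNTTC and TTCNNGAA, chosen after the values were seen, occurred on either strand in 12.8% of all promoters of the table. The promoters of Hspa1a (chr17:34972157-34972406, minus strand) and Hspe1 (chr1:55087898-55088147, plus strand), 250 bases before each start, are shown with the matches in capitals. That of Hspe1 held 3 overlapping matches and that of Hspa1a held 1. The promoter of Cacybp held 0, and Hsp90ab1 had no entry. Genes that fell held matches too, 1 in the promoter of Top2a and 1 in 1 of 2 promoters of Hspb6 (log2 fold change -0.46, SE 0.11, adjusted p = 0.0154).
Hspa1a: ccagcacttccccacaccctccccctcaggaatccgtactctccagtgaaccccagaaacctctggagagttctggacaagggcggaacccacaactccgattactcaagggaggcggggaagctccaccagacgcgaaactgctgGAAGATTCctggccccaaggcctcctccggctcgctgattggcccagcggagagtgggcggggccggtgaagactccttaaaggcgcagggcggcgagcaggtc
Hspe1: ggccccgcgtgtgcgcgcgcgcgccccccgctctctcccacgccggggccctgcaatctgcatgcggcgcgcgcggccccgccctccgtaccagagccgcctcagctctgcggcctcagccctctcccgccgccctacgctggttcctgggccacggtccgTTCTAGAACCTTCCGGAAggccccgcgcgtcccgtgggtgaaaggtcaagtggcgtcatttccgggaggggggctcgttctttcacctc

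Other leading increases came from genes outside these groups that were low at 4 days. Cyp26b1, the enzyme that degrades retinoic acid, stood at 1.25, 1.82, 1.68 and 2.13 CPM at 4 days and at 9.92, 9.64, 7.39 and 4.66 CPM at 11 days (log2 fold change 2.23, SE 0.23, adjusted p = 0.000217). Saline A alone held 26.1 CPM and the other saline hearts 0.929 to 2.62 CPM, and with all groups in one fit the adjusted p was 0.0683, the highest of a range from 2.33e-19. Inmt, an N-methyltransferase, rose by 1.46 (SE 0.28, adjusted p = 0.00484), and Mmrn1, of the platelet and endothelial protein multimerin 1, by 1.37 (SE 0.26, adjusted p = 0.0044). With robust dispersions the adjusted p was 0.0751 for Inmt (range 9.42e-06 to 0.0751) and 0.0583 for Mmrn1 (range 0.000112 to 0.0583). Amy1, an amylase, rose by 1.11 (SE 0.14, adjusted p = 0.000534), and Gfra1, a receptor for glial cell line-derived neurotrophic factor, by 1.08 (SE 0.13, adjusted p = 0.000463). For Amy1, which resembles the pancreatic amylase genes closely, the assignment of reads is uncertain. G0s2, an inhibitor of the lipase ATGL, rose by 0.88 (SE 0.15, adjusted p = 0.00283) and stood at 12.1 to 20.6 CPM at 11 days, within the saline range of 11.1 to 25.3 CPM.

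Of 20 endothelial markers 3 rose and 0 fell, with 5 higher by DESeq2. Vwf, of von Willebrand factor, rose by 0.77 (SE 0.12, adjusted p = 0.0016), and Aqp1, the water channel of capillaries, by 0.58 (SE 0.13, adjusted p = 0.012). Aqp1 stood at 37.9, 60.6, 46.3 and 49.1 CPM at 4 days, at 87.7, 68.3, 63.3 and 70.6 CPM at 11 days, and at 83.3 to 115 CPM in saline hearts. Smooth muscle and pericyte markers were lower in 3 of 13 (1 with all groups in one fit), and epicardial markers had 0 calls of 10. Red blood cell markers had 0 calls of 7, but the level of blood differed between hearts. The β-globin gene Hbb-bs, near-identical to its neighbour Hbb-bt, ranged from 16.5 to 87.9 CPM at 4 days and from 27.2 to 93.1 CPM at 11 days.

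The circadian clock differed between the times in both of its arms. Of 19 clock genes 8 were lower and 3 higher, and with any heart left out 8 or 9 were lower and 3 higher, with 3 to 5 higher in the other fits. Arntl, of the activator BMAL1, stood at 0.507 to 0.846 CPM in saline hearts, at 1.49, 1.41, 1.25 and 1.28 CPM at 4 days and at 3.3, 2.67, 2.91 and 2.91 CPM at 11 days. The groups were fully apart (log2 fold change 1.11, SE 0.13, adjusted p = 0.000301). Nr1d1, of the repressor REV-ERBα, ran opposite, from 19.1 to 25.9 CPM in saline hearts to 13.9, 11.7, 17.8 and 10.8 CPM at 4 days and 8.79, 6.77, 6.21 and 7.19 CPM at 11 days (log2 fold change -0.92, SE 0.14, adjusted p = 0.00144). Dbp, an output gene of the clock, fell by 0.77 (SE 0.08, adjusted p = 0.000285) and lay 1.26 below saline at 11 days (SE 0.09, adjusted p = 2.07e-05). The hour at which hearts were collected was not given in the sources used here, and its part in these values was not tested.

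Immediate early genes, which respond within minutes to stimulation and to handling of tissue, were lower in 9 of 21 and higher in 0 (median log2 fold change -0.39). That count was 4 without 4-day A, 11-day B, 11-day C or 11-day D, 5 without 4-day C, and 4 with effective lengths as offsets or all groups in one fit. Egr1 stood at 4.14, 2.31, 6.8 and 2.32 CPM at 4 days and at 1.48, 1.18, 1.24 and 1.87 CPM at 11 days (log2 fold change -1.46, SE 0.30, adjusted p = 0.00705). With robust dispersions its adjusted p was 0.0713, the highest of a range from 5.78e-05. The saline hearts held 2.47 to 8.82 CPM, the highest in saline B, and Egr1 was below them by 1.49 at 11 days (SE 0.36, adjusted p = 0.0349).

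Among genes of protein synthesis and splicing, the share called higher differed by list. It was 6.1% for ribosomal proteins, 25.8% for ribosome biogenesis factors and 4.92% for splicing factors, against 3.75% of all genes. Among genes of at least 5 CPM, 810 were higher, 789 lower and 7226 without a call. The shares of ribosomal proteins and splicing factors lay below the share of higher genes in that set. Of 82 cytosolic ribosomal protein genes, which have many processed copies among which reads can be split, 5 rose and 1 fell. With a heart left out 3 rose without 4-day A, 4-day C, 11-day B or 11-day C and 8 without 4-day B, and 2 to 10 in the other fits. Their median log2 fold change was 0.09, and -0.04 with library size alone. The gene that fell was Rpl3, by 0.70 (SE 0.12, adjusted p = 0.00273), while its muscle paralog Rpl3l rose by 0.53 (SE 0.11, adjusted p = 0.00832). Rpl3 stood at 84.3, 57.7, 57.9 and 64.7 CPM at 4 days and at 38, 41, 48.5 and 36.8 CPM at 11 days, Rpl3l at 31.7, 49.3, 38.5 and 38.5 CPM and at 54.3, 56.7, 54 and 63.5 CPM, and neither overlapped between the groups. Of 31 ribosome biogenesis factors 8 rose and 1 fell, and 11 rose without 4-day B. The rising count was 0 without 4-day A, with library size alone or with effective lengths as offsets. It was 2 without 11-day A, 3 without 4-day D, 11-day B or 11-day D and 4 without 4-day C. Of 61 splicing factors 3 rose and 0 fell, with 1 rising without 4-day A, 11-day B or 11-day D and 5 without 4-day B, and 0 with library size alone. Among 28 known long non-coding RNAs 2 fell (7.14%, against 6.55% of all genes) and 0 rose, or 5 and 1 without 4-day B. Between 1 (robust dispersions) and 7 (library size alone) fell in the other fits, with 5 by DESeq2. The 2 were Meg3 (log2 fold change -1.16, SE 0.22, adjusted p = 0.0049) and its neighbour Rian (log2 fold change -0.93, SE 0.21, adjusted p = 0.0135). In both, 4-day B lay within the 11-day range, and both lost the call with robust dispersions, at adjusted p of 0.0685 (range 1.11e-06 to 0.0685) and 0.112 (range 8.48e-05 to 0.112).

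Several genes raised by isoproterenol showed no detectable change between the times. Mt2, of the metal-binding protein metallothionein 2, stood at 12.2, 12.2, 8.81 and 9.52 CPM at 4 days and at 14.1, 10.7, 9.74 and 7 CPM at 11 days, against 1.06 to 3.38 CPM in saline hearts. The groups overlapped (log2 fold change -0.06, SE 0.17, adjusted p = 0.888). Bambi, a decoy receptor for TGF-β, differed by 0.10 (SE 0.11, adjusted p = 0.686) and was above saline by 1.23 at 4 days (SE 0.12) and by 1.32 at 11 days (SE 0.10). Pam, of an enzyme that amidates peptides and abounds in heart muscle, differed by -0.25 (SE 0.11, adjusted p = 0.182) and remained 1.02 above saline at 11 days (SE 0.11, adjusted p = 0.000312). Only library size alone, of 20 alternatives, gave Pam a call (adjusted p = 0.0464, in a range of 0.0464 to 0.467).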

How the data were processed

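Ventricular RNA of each heart was made into a total RNA library, and 8 of the 15 libraries entered the comparison. The tools credited to the authors in the submitters' processing notes are cutadapt 4.1 for trimming, HISAT2 2.2.1 for alignment (genome GRCm38.p6), RSEM 1.3.3 for gene abundance and DESeq2. No source used here gives the annotation or the strand setting of RSEM. The deposited files hold RSEM's expected counts (estimated counts, with reads shared between genes divided among them), FPKM and effective lengths of each gene. FPKM served only as levels per length in tables and effective lengths only as offsets in an alternative. Of 55401 gene IDs, 55141 were in GENCODE M21, from which positions and gene types were taken.

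Expected counts were rounded to whole numbers, and genes with under 10 counts summed over the 15 libraries were removed, which left 26862. The 4-day and 11-day libraries were fitted together with edgeR 4.0.16 (R 4.3.3) by the quasi-likelihood method after TMM scaling, and two-sided p-values were adjusted by the Benjamini-Hochberg method. The threshold was 0.05, and the standard error (SE) of a log2 fold change was taken from its F statistic. Each comparison with saline was a fit of its own 8 libraries. The alternatives used limma 3.58.1 (voom) and DESeq2 1.42.0 besides edgeR, and the scripts were tested on simulated counts. Replicates are libraries labelled A to D within a group. Nothing in the labels ties letters across groups, and p-values measure the spread between these hearts.

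Members and the 46 gene lists were chosen with earlier results of these data known. Named genes were the 15 lowest and 15 highest log2 fold changes among called genes with 5 CPM or more in either group and no overlap between groups (clone-like and pseudogene symbols left out), the up to 4 genes of smallest p in each list, and 22 genes listed by name. Values of some of these genes are not reported here. Promoter letters are from the RefSeq table for GRCm38.p6. The search for heat shock elements and the share of motifs in the mitosis list were added after the values were seen.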

Additional observations from a re-analysis of the deposited data

Results flagged for a closer look

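In 5 of 186 groups of 4 hearts tested, 1 heart stood apart from the other 3 of its group by Dixon's ratio of gap to range above its critical value. Chance passes that value in about 1 of 20 independent groups, a higher rate. The groups here share the same 8 hearts, and some genes were chosen for no overlap. The count is therefore no measure of how uniform the hearts are. In 11-day C, Postn stood at 123 CPM, against 16.7 to 26.4 CPM in the other 11-day hearts. In 11-day D, the β-globin genes Hbb-bs and Hbb-bt stood at 93.1 and 16.1 CPM, against 27.2 to 35.2 CPM and 5.23 to 5.72 CPM. In 4-day B, Cx3cr1 stood at 0.642 CPM, against 1.43 to 1.51 CPM, and Tnni3 at 1290 CPM, against 1050 to 1080 CPM. The higher globin levels of 11-day D came with no call in the 7 red blood cell markers, and their part in other values was not tested.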

How the results depend on the processing

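Across the alternatives, genes lower at 11 days numbered 834 at an adjusted p under 0.01 and 654 at a change of at least 2-fold, against 1760, and between 993 (without 4-day A) and 2252 (without 4-day B) with a heart left out. Genes higher numbered 317 with library size alone, 652 with effective lengths as offsets, 316 at an adjusted p under 0.01 and 71 at 2-fold or more, against 1006, and between 444 (without 4-day A) and 1661 (without 4-day B) with a heart left out. The cause of these shifts was not tested. DESeq2 gave 1845 and 1358 and limma voom 2051 and 1313. With the replicate letter as a block (replicate block), 1697 genes were lower and 923 higher. Same-lettered hearts had r of -0.123, 0.256, -0.015 and -0.118 for A to D, so A, C and D did not deviate together. The B pair, which holds 4-day B, had the highest r, with -0.261 to 0.206 between hearts of different letters. The letters were not taken as pairs.

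Of 164 named genes with a call, 108 kept it in every one of 20 alternatives, 56 lost it in at least 1, and 0 changed direction between 4 and 11 days. Against saline at 11 days, the log2 fold change of Cyp26b1 was -0.09, and -0.44 to 1.91 with a heart left out, the highest without saline A. That of Hspa1a was -0.71, and -1.42 (without 11-day A) to 2.66 (without saline B). Saline A and saline B held most of the saline signal of these genes. Depth limits genes under about 0.1 CPM, which stand on few reads in the shallowest libraries.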

Other observations

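Outside the rule for named genes, 2 pseudogenes were at 0 counts in every heart of a group while the other group had a mean of at least 1 CPM, and both were chosen after their values were seen. Gm9843, a processed pseudogene, had the smallest p of all genes and stood at 3.92, 3.25, 2.85 and 5.25 CPM in 11-day A to D and at 0 in the 4-day hearts. It stood at 0, 0.912, 0 and 5.53 CPM in saline A to D and at 0, 0 and 2.93 CPM in 8-day A to C, so it was on or off within groups as well. Gm28439, an unprocessed pseudogene, stood at 97.5, 0.128, 108 and 0 CPM in 4-day A to D, at 0 in the 11-day hearts and at 280 CPM in saline D alone of its group. RSEM divides reads among near-identical sequences, so the assignment of reads to both is uncertain.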
